A study of Homo sapiens with 5 samples.

Results

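Lysosomes are the acidic compartments in which cells break down proteins, lipids, sugars and worn-out organelles, and autophagy is the route that carries a cell's own cytoplasm to them. In autophagy a double membrane grows around its cargo, small ubiquitin-like proteins of the ATG8 family are attached to that membrane, receptors bind the cargo to them, and the closed vesicle fuses with a lysosome. Here 34 genes of this system were described in PC9, an established cell line from a human lung adenocarcinoma whose growth relies on mutated EGFR. They were chosen by name for these roles, and all 34 had a row among the 27477 genes of the authors' deposited table and passed its filter on low values, as did 15223 genes in all. Of the 34, 23 are lysosomal, namely 12 hydrolases and their helpers, 5 membrane or cholesterol-export proteins, 5 proton pump genes and the transcription factor TFEB. The other 11 act in autophagy, 4 in starting the membrane, 2 in conjugation of ATG8 proteins and 5 as ATG8 proteins or cargo receptor.

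The series holds 3 libraries of parental PC9 cells and 2 of drug-tolerant cells. The drug-tolerant cells were those left after 6 days in 50 nM gefitinib, an inhibitor of the EGFR kinase, and 3 further days in growth medium, so they were collected without the drug. All cells were grown in medium with serum, and mRNA was sequenced after TriZol isolation with a stranded kit. The labels do not say that replicates came from separate cultures, so p-values here measure a spread between libraries that may be only technical. In bulk RNA, fewer cells with a transcript and less of it per cell cannot be told apart.

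The table has the columns of a DESeq2 result and no values per library. A positive log2 fold change is higher in drug-tolerant cells, the error is the standard error (SE), and the mean level is the mean over libraries of reads divided by the library's size factor, called normalized reads below. For the 17 members with a mean level under 1000, the reads in each library were recovered from the unrounded mean, fold change and SE in the table. These libraries are named here by group and letter (parental a, b, c; drug-tolerant a, b), since which replicate number each carries is not known. Depth was not counted. Taken as each library's size factor times the sum of all mean levels, it was 14.2 to 21.4 M reads. The deposited log2 fold changes are moderated, that is, pulled toward no difference. Ratios of recovered reads and solved group means given below are not. For GABARAPL1 the deposited value was -0.87, while the log2 ratio of recovered reads over all libraries was -1.01.

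Parental a stood apart from parental b and c. Over 233 other genes of mean level 80 to 1000, the chi-square per degree of freedom between parental a and parental b was 53.3, against 8.14 between parental a and drug-tolerant a. Between parental b and parental c it was 1.37 (p = 0.00017, a chi-square test across genes against counting error alone), so these libraries differed by little more than counting error. Recovered reads are therefore given library by library, and every difference drawn from them both against parental a and against parental b and c.

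Promoter sequences are shown because TFEB, itself among the genes described, is known to bind the palindrome TCACGTGA within an element shared by many lysosomal genes. RefSeq promoter windows (GRCh38.p14, 250 bases before to 50 after the start) matched 28 of the 34 genes by symbol, with 36 windows. TCACGTGA, which reads the same on both strands, was in 13.9% of these windows, belonging to ATP6V0D1, CTSA, GAA, LAMP1 and MCOLN1, and in 0.980% of all 35116 windows. Its core CACGTG, which every match to the palindrome contains, was in 16.7% of the members' windows and 7.26% of all. The 8 matches are given below with 30 bases each on the gene's strand, the palindrome in capitals.
ATP6V0D1 (chr16:67481199-67481228, minus strand): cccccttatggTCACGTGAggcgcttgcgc
CTSA (chr20:45891298-45891327, plus strand): ggcgccggagtTCACGTGActcgtacacat
GAA (chr17:80101538-80101567, plus strand): gctcccgccggTCACGTGAcccgcctctgc
GAA (chr17:80101493-80101522, plus strand): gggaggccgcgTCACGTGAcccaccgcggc
LAMP1 (chr13:113297226-113297255, plus strand): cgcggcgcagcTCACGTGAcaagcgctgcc
LAMP1 (chr13:113297199-113297228, plus strand): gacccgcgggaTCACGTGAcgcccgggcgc
MCOLN1 (chr19:7522598-7522627, plus strand): gggctaccgggTCACGTGAccgaggcacag
MCOLN1 (chr19:7522571-7522600, plus strand): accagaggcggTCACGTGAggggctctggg
GAA, LAMP1 and MCOLN1 each held the palindrome at 2 places. A match describes these letters and does not show binding. In the authors' deposited table, the 5 genes with the palindrome had log2 fold changes from -0.29 to -0.04 with a median of -0.19. The median over all 34 members, these 5 among them, was nearly the same at -0.18. The 221 genes with the palindrome among all genes tested had a median of -0.01. With a trend in length and GC content removed, as described below, the 5 ran from -0.17 (GAA) to 0.09 (MCOLN1). Whether the palindrome had a part in these values was not tested.

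No lysosome or autophagy gene passed the test, and most lay slightly lower in drug-tolerant cells. Of the 34, 0 had an adjusted p under 0.05 in the authors' deposited table (DESeq2), where 0.552% of all 15223 genes did, 0.289% lower and 0.263% higher. At a threshold of 0.1 the members' count was again 0, against 1.01% of all genes. At an unadjusted p under 0.05, 9 were lower and 1 was higher, against 7.10% and 3.70% of all genes tested. The log2 fold change was negative in 26 of the 34 (76.5%), against 51.6% of all genes tested. Its median was -0.18 over the members and -0.02 over all genes tested in that table. By role, the median was -0.65 for the ATG8 proteins and cargo receptor, -0.21 for the hydrolases and their helpers, -0.15 for the proton pump and -0.08 for the membrane and cholesterol-export proteins. It was -0.20 for the 4 genes that start the autophagic membrane and -0.15 for the 2 conjugation genes, and TFEB alone was at -0.48. The 11 autophagy genes had a median of -0.42 and the 23 lysosomal genes one of -0.17. These values are before removal of the trend with length described next, and they depend on the parental library. In the 17 recovered genes the median log2 ratio was -0.02 against parental a and -0.26 against parental b and c. In the 233 other genes the same medians were 0.03 and -0.10.

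**Figure D1:**
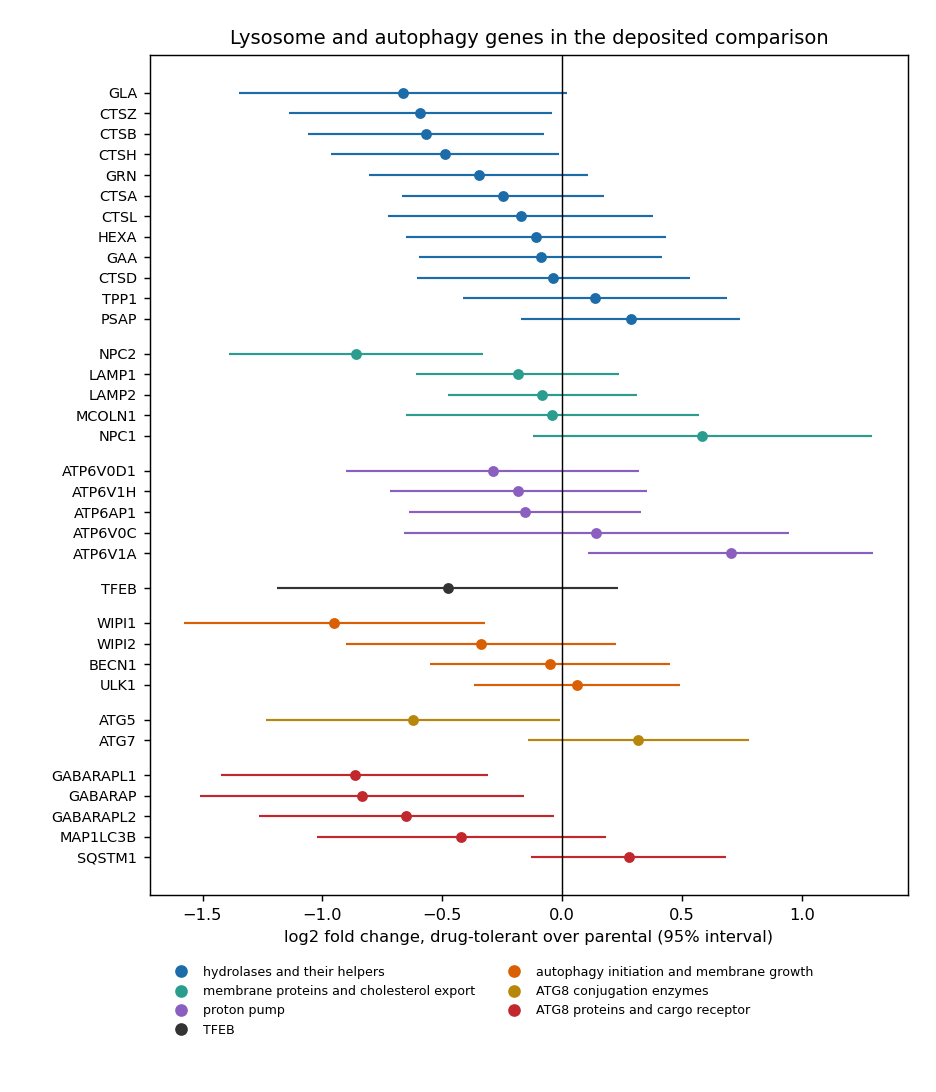
Log2 fold change of each of the 34 genes (points) with its 95% interval (lines) from the authors' deposited table, drug-tolerant over parental, coloured by role. The points run from WIPI1 at -0.95 to ATP6V1A at 0.70, 26 lie left of 0, and none had an adjusted p under 0.05.

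Across the whole table short transcripts had the lower values, and most members are short. Over 12461 protein-coding genes tested, Spearman's rho between length and log2 fold change was 0.53, a description across genes that share the 5 libraries. In 10 equal groups by length, the median log2 fold change was -0.51 in the shortest, of median length 1012 nucleotides, and 0.39 in the longest, of median length 9151. The members were short, with a median length of 2184 nucleotides against 3173 for all protein-coding genes tested, and 10 of the 34 were longer than that. With a trend in length and GC content removed, the median over the members was -0.16. It was -0.24 for the autophagy genes, -0.12 for the lysosomal genes, -0.37 for the ATG8 proteins and cargo receptor, -0.22 for the hydrolases, -0.14 for the membrane group and -0.01 for the proton pump. The 4 genes that start the autophagic membrane had a median of -0.19 and the 2 conjugation genes one of -0.24, with TFEB alone at -0.39. Of the 34 values, 13 became smaller by over 1.5 times, 4 became larger by as much, 4 changed sign and 13 did neither. At an unadjusted p under 0.05, 4 members were then lower (CTSB, GABARAPL1, WIPI1 and NPC2) and 0 higher, against 4.92% and 3.07% of all protein-coding genes. With the Wald score scaled by its robust SD in place of the trend, 2 were lower (NPC2 and GABARAPL1) and 0 higher, against 0.880% and 0.670% of all genes tested. What part length had in any single value was not tested.

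**Figure D2:**
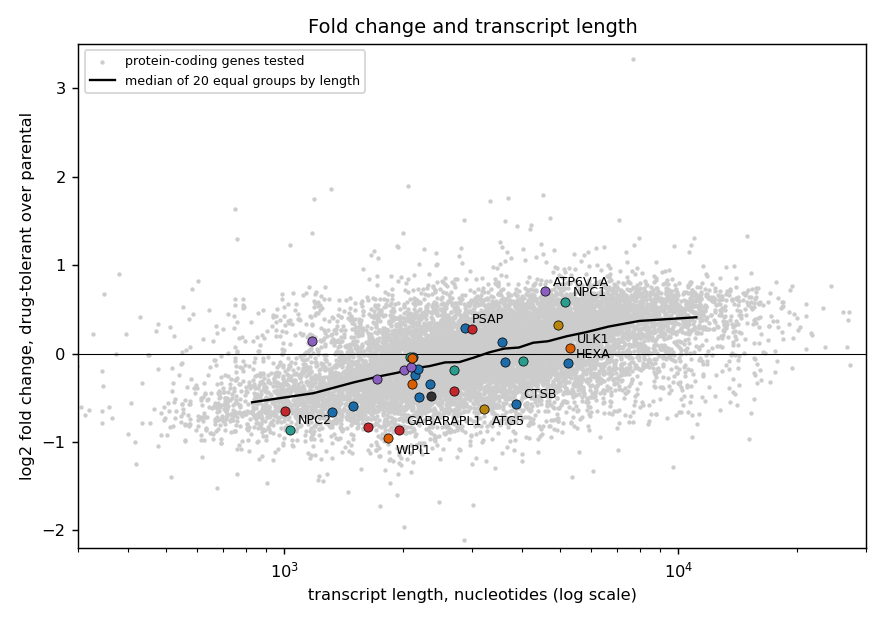
Log2 fold change in the authors' deposited table against transcript length in nucleotides (log scale). Grey points are protein-coding genes tested, the line joins medians of 20 equal groups by length, and coloured points are the 34 members by role as in the plot of their fold changes. The line climbs from left to right, NPC2 lies near its short end, and CTSB, WIPI1 and GABARAPL1 lie below it.

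By role, the ATG8 proteins and cargo receptor had the lowest median in the authors' deposited table, though the receptor itself was positive. GABARAPL1, a member of the GABARAP branch of the ATG8 family (ENSG00000139112, chromosome 12, 10212458 to 10223130, GRCh38), had normalized reads of 434, 691 and 663 in parental a, b and c, against 286 and 307 in drug-tolerant cells. Both drug-tolerant libraries were thus below all 3 parental ones. The authors' deposited table put its log2 fold change at -0.87 ± 0.28 (SE; unadjusted p = 0.0023, adjusted p = 0.17), and the log2 ratio of recovered reads was -0.55 against parental a and -1.19 against parental b and c. GABARAP itself, on chromosome 17 (7240014 to 7242770), had 158, 321 and 368 normalized reads in parental cells and 141 and 124 in drug-tolerant cells. Here too the groups did not overlap, but parental a was close to the drug-tolerant libraries. The log2 ratio was -0.25 against parental a and -1.38 against parental b and c, and the value in the authors' deposited table was -0.84 ± 0.34 (adjusted p = 0.39). In GENCODE 29, 30.5% of GABARAP's exon bases are shared with a second gene on the same strand, so its reads may be split.

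GABARAPL2, the third GABARAP-branch gene, and MAP1LC3B, the LC3 protein most used as a marker of autophagosomes, were too abundant for recovery by library. The authors' deposited table gave GABARAPL2 -0.65 ± 0.31 (adjusted p = 0.45) and MAP1LC3B -0.42 ± 0.31 (adjusted p = 0.53). The group means solved from the same rows were 1207 and 697 normalized reads for GABARAPL2 in parental and drug-tolerant cells, and 1222 and 859 for MAP1LC3B. SQSTM1, the cargo receptor p62 that is itself consumed by autophagy, lay on the other side: the authors' deposited table gave 0.28 ± 0.21 (adjusted p = 0.54), with solved means of 2093 and 2573. All 4 ATG8 genes were therefore negative and the receptor positive, with none past the test. With the length and GC trend removed, GABARAPL1 was at -0.70, GABARAP at -0.60, MAP1LC3B at -0.37, GABARAPL2 at -0.24 and SQSTM1 at 0.27 on the log2 scale.

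Among the genes that start the autophagic membrane, WIPI1 had the lowest fold change of all 34. It encodes a protein that binds phosphatidylinositol 3-phosphate on the growing membrane (ENSG00000070540, chromosome 17, 68420948 to 68457513). WIPI1 had normalized reads of 127, 207 and 209 in parental a, b and c, against 89.1 and 71.0 in drug-tolerant cells, from 56 to 211 counted reads a library. No drug-tolerant library reached the lowest parental one. The log2 ratio was -0.66 against parental a and -1.38 against parental b and c. The authors' deposited table gave -0.95 ± 0.32 (unadjusted p = 0.0030, adjusted p = 0.19). In GENCODE 29, 28.1% of its exon bases lie opposite exons of ARSG or of AC007780.1. Whether counting used strand is not given in the sources used here. Other members had such overlap too, among them CTSA at 28.5%, GABARAP at 25.2%, SQSTM1 at 22.0%, ATG7 at 18.1% and BECN1 at 17.1%. WIPI2 is a close relative of WIPI1 and recruits the conjugation machinery. The authors' deposited table gave it -0.34 ± 0.29 (adjusted p = 0.58). Without the trend WIPI1 was at -0.75 and WIPI2 at -0.21.

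ULK1 and BECN1, the kinase that starts autophagy and the scaffold of its lipid kinase complex, were at about the same level in both groups. ULK1 had 739, 647 and 702 normalized reads in parental cells and 731 and 725 in drug-tolerant cells, which lay inside the parental range. BECN1 had 487, 675 and 663 against 587 and 582, again inside it. Their log2 fold changes in the authors' deposited table were 0.06 ± 0.22 and -0.05 ± 0.26, with 95% intervals of -0.37 to 0.49 and -0.55 to 0.45. Without the trend both changed sign, to -0.16 and 0.10. Each interval reaches to both sides of no difference, so differences in either direction within it remain possible.

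The conjugation genes ATG5 and ATG7 lay on opposite sides. ATG5, which as a conjugate with ATG12 helps to attach ATG8 proteins to lipid, had 421, 804 and 788 normalized reads in parental a, b and c and 399 and 393 in drug-tolerant cells. ATG7, the E1-like enzyme that activates ATG8 proteins and ATG12, had 457, 375 and 392 in parental cells and 508 and 532 in drug-tolerant cells. Neither gene's groups overlapped, with ATG5 lower and ATG7 higher in drug-tolerant cells. Against parental a alone the difference was small for both, with log2 ratios of -0.09 for ATG5 and 0.19 for ATG7, and it was -1.01 and 0.44 against parental b and c. The authors' deposited table gave -0.62 ± 0.31 (adjusted p = 0.46) and 0.32 ± 0.24 (adjusted p = 0.54). Without the trend they stood at -0.60 and 0.12.

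**Figure D3:**
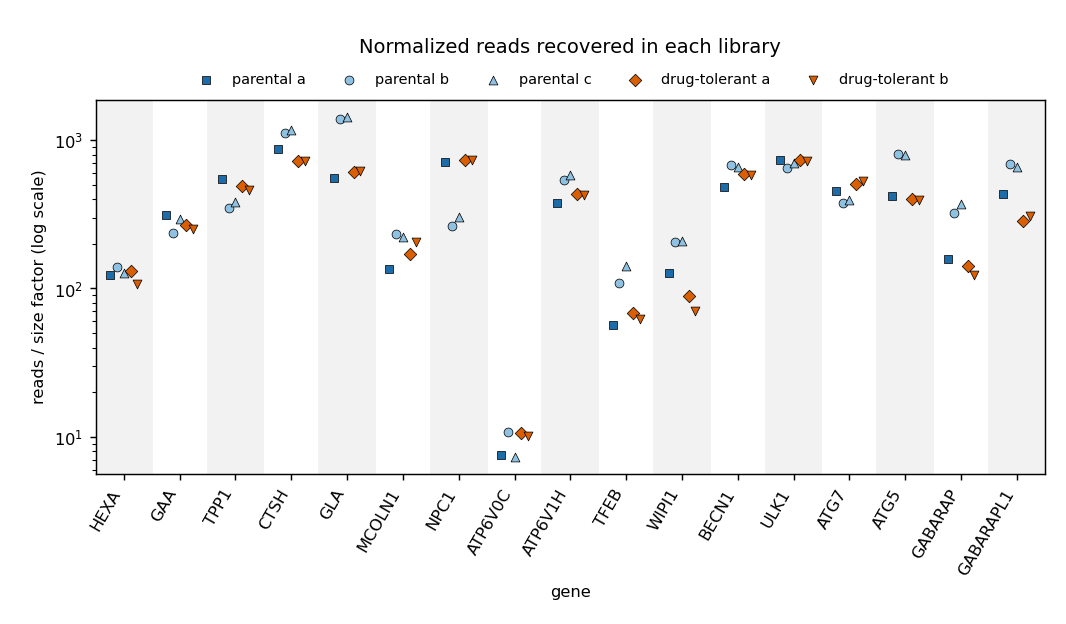
Normalized reads (reads divided by size factor, log scale) in each of the 5 libraries for the 17 genes whose reads were recovered, ordered by role. Squares, circles and triangles are parental a, b and c, and orange symbols are the drug-tolerant libraries. The drug-tolerant symbols lie below all parental ones in WIPI1, GABARAP, GABARAPL1, ATG5 and CTSH and above them in ATG7 and NPC1, while the dark squares often lie with the orange symbols.

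Of the 12 hydrolases and their helpers, 10 had a negative log2 fold change (83.3%), against 51.6% of all genes tested. None of the 12 passed the test. The cysteine cathepsins CTSZ, CTSB, CTSH and CTSL were at -0.59 ± 0.28, -0.57 ± 0.25, -0.49 ± 0.24 and -0.17 ± 0.28 in the authors' deposited table, with adjusted p-values of 0.45, 0.43, 0.46 and 0.77. CTSB, whose transcript is longer than the median, was at -0.68 with the length and GC trend removed, while CTSZ was at -0.33, CTSH at -0.37 and CTSL at -0.05. CTSH had 876, 1115 and 1168 normalized reads in parental cells and 723 in each drug-tolerant library. It was below every parental library, by a log2 ratio of -0.28 against parental a and -0.66 against parental b and c. For CTSZ the group means solved from the table were 3729 in parental and 2323 in drug-tolerant cells. The aspartic protease CTSD was at -0.04 ± 0.29 in the authors' deposited table, although 41.7% of its exon bases are shared with another gene on the same strand. CTSA, the serine carboxypeptidase that protects other hydrolases, was at -0.25 ± 0.21 there and at -0.12 without the trend, and CTSD was then at 0.10.

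GLA, the alpha-galactosidase lacking in Fabry disease, had the most negative hydrolase value in the authors' deposited table, -0.66 ± 0.35 (adjusted p = 0.47). GLA had 557, 1391 and 1435 normalized reads in parental a, b and c and 607 and 624 in drug-tolerant cells. The drug-tolerant libraries lay just above parental a, at a log2 ratio of 0.14, and far below the other parental libraries, at -1.20. HEXA, the alpha subunit of beta-hexosaminidase, had 123, 139 and 128 against 131 and 106. GAA, the acid glucosidase of glycogen, had 313, 237 and 293 against 270 and 254. In neither did the groups separate. Without the trend in length and GC content, GLA was at -0.35, HEXA at -0.33, GAA at -0.17 and TPP1, described next, at 0.06 on the log2 scale.

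Saposin and granulin precursors differed in sign. PSAP, whose saposins help to degrade sphingolipids, had the highest level of the 12 per kilobase of transcript. The authors' deposited table gave it 0.29 ± 0.23, and its solved means were 6181 and 7678. GRN, the progranulin gene, was at -0.35 ± 0.23 there, with solved means of 2070 and 1587. TPP1, a tripeptidyl peptidase, had 549, 349 and 381 normalized reads in parental cells and 489 and 463 in drug-tolerant cells, which lay between parental a and the others. The adjusted p-values of the 3 genes in the authors' deposited table ran from 0.51 to 0.82.

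The Niemann-Pick genes, which together move cholesterol out of the lysosome, lay at opposite ends of the membrane group. NPC2, the soluble cholesterol carrier of the lumen (ENSG00000119655, chromosome 14, 74476192 to 74494177), had the smallest adjusted p of all 34 in the authors' deposited table (0.13; unadjusted 0.0015), at a log2 fold change of -0.86 ± 0.27. Its solved means were 4207 normalized reads in parental and 2127 in drug-tolerant cells. NPC2 is also among the shortest members, at 1035 nucleotides, and stood at -0.49 with the length and GC trend removed. NPC1, the membrane transporter that takes cholesterol from NPC2, had 711, 263 and 304 normalized reads in parental a, b and c and 740 and 733 in drug-tolerant cells. The drug-tolerant libraries lay above all parental ones, by a log2 ratio of 0.05 against parental a and 1.38 against parental b and c. The authors' deposited table gave 0.58 ± 0.36 (adjusted p = 0.51), and without the trend NPC1 was at 0.37.

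The membrane glycoproteins that line the lysosome differed little. LAMP1 was at -0.19 ± 0.22 and LAMP2 at -0.08 ± 0.20 in the authors' deposited table, with 95% intervals of -0.61 to 0.24 and -0.48 to 0.31. Per kilobase of transcript, LAMP1 had a mean level of 2158 normalized reads and LAMP2 1204, below NPC2 at 3261 and PSAP at 2361, the highest 2 members. MCOLN1, a calcium channel of the lysosomal membrane, had 134, 232 and 222 normalized reads in parental cells and 172 and 207 in drug-tolerant cells. The groups overlapped, and the authors' deposited table put MCOLN1 at -0.04 ± 0.31. Without the trend LAMP1 was at -0.15, LAMP2 at -0.14 and MCOLN1 at 0.09.

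The proton pump acidifies the lysosome, and its 5 genes had values on both sides of 0. ATP6V1A, the catalytic subunit of the pump's cytosolic part (ENSG00000114573, chromosome 3, 113747019 to 113812056) had the highest log2 fold change of the 34 in the authors' deposited table, 0.70 ± 0.30 (unadjusted p = 0.020, adjusted p = 0.42). Its solved means were 983 normalized reads in parental and 1759 in drug-tolerant cells, and it is a long transcript, at 4591 nucleotides. With the length and GC trend removed it stood at 0.58. ATP6V1H, a regulatory subunit of the same part, had 379, 539 and 581 normalized reads in parental cells and 435 and 428 in drug-tolerant cells, inside the parental range. The membrane-part subunit ATP6V0D1 and the accessory protein ATP6AP1 were at -0.29 ± 0.31 and -0.15 ± 0.25 in the authors' deposited table. Without the trend ATP6V0D1 was at -0.08, ATP6AP1 at -0.02 and ATP6V1H at -0.01.

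ATP6V0C, the proteolipid that forms the pump's rotating ring, was listed far lower than the other pump genes. It had 9, 11 and 7 counted reads in parental cells and 12 and 8 in drug-tolerant cells. In GENCODE 29, 72.1% of its exon bases are shared on the same strand with 2 readthrough genes that have no row in the table, so these reads may be only part of its transcripts. Its value, 0.14 ± 0.41 in the authors' deposited table and 0.48 without the trend, therefore says little about the gene.

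TFEB, the master transcription factor of lysosome genes, was expressed at a low level. It had 57.1, 108 and 143 normalized reads in parental a, b and c and 67.9 and 62.1 in drug-tolerant cells. The drug-tolerant libraries lay above parental a and below the others, at log2 ratios of 0.19 and -0.95. The authors' deposited table gave -0.48 ± 0.36 for TFEB (adjusted p = 0.55). TFEB acts mainly by moving into the nucleus, which mRNA does not measure.

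Over the 17 recovered genes, parental a differed more from the other parental libraries than from drug-tolerant cells. The median absolute log2 ratio was 0.21 between the drug-tolerant libraries and parental a, 0.44 between them and parental b and c, and 0.59 between parental a and parental b and c. Between parental b and parental c it was 0.11. Parental a was nearer to the drug-tolerant mean than to parental b and c in 15 of the 17 genes, GAA and ATP6V0C being the others, and in 77.7% of the 233 other genes. The drug-tolerant libraries lay below all parental ones in 5 of the 17 (WIPI1, GABARAP, GABARAPL1, ATG5 and CTSH) and above them in 2 (ATG7 and NPC1), 7 in all, against 21.0%, 18.9% and in all 39.9% of the other genes. These shares are near those of other genes. With 3 libraries against 2, an exact permutation test of a single gene cannot give a one-sided p below 0.1.

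Against parental a alone, 15 of the 17 genes lay within 0.5 on the log2 scale, as did 90.6% of the 233 other genes, a share near the members'. WIPI1 and GABARAPL1 were the exceptions, both lower in each drug-tolerant library than in any parental library. The median log2 ratio over the 17 was -0.13 with all libraries, -0.26 without parental a and -0.02 against parental a alone. Over the 233 other genes the same medians were -0.07, -0.10 and 0.03. Counting parental b and c as 1 library gave a median of -0.12, with WIPI1 at -1.07, GABARAPL1 at -0.91 and NPC1 at 0.57.

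**Figure D4:**
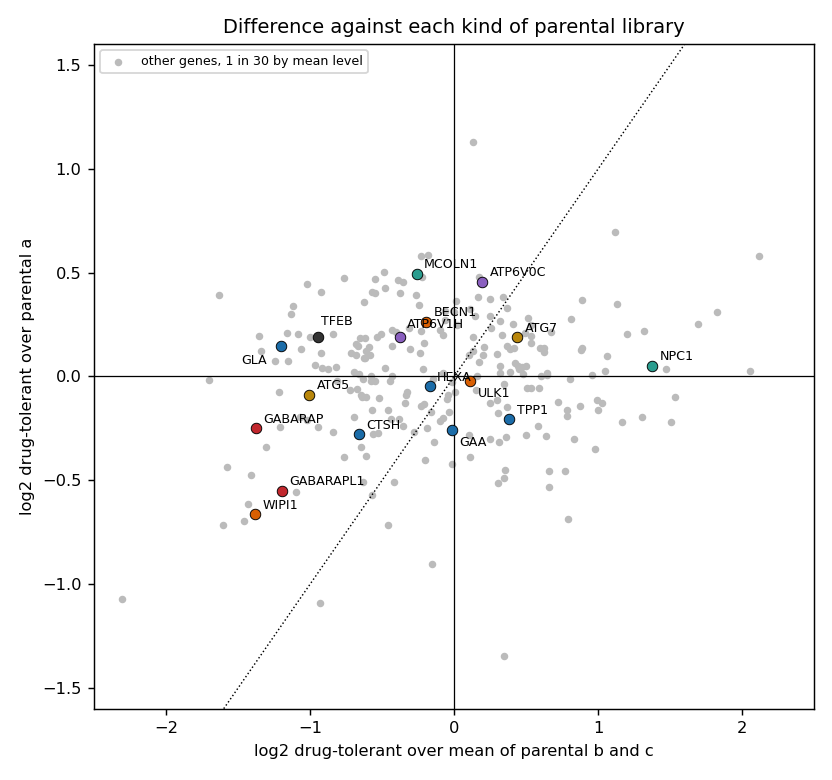
Log2 ratio of the drug-tolerant mean to parental a (vertical) against its log2 ratio to the mean of parental b and c (horizontal) for the 17 members with recovered reads (coloured by role as in the plot of fold changes) and 233 other genes (grey, 1 of them outside the axes). The dotted line marks equal values. GABARAP, GLA, ATG5, TFEB and NPC1 lie far from 0 on the horizontal axis and within 0.3 of it on the vertical one, and WIPI1 and GABARAPL1 are below 0 on both.

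Other genes of the same organelles did not pass the test either. Of 153 listed, 150 had a single row and 140 an adjusted p in the authors' deposited table, of which 0 were called, 7 were lower and 7 higher at an unadjusted p under 0.05, and the median was -0.09. The shares of all genes tested are 0.552%, 7.10% and 3.70% in the same order, with a median of -0.02. OPTN, a cargo receptor related in role to p62, came nearest, and the authors' deposited table gave it -0.90 ± 0.26 (adjusted p = 0.079). It had 498, 675 and 705 normalized reads in parental a, b and c and 294 and 322 in drug-tolerant cells, so the groups did not overlap. Its log2 ratio was -0.69 against parental a and -1.16 against parental b and c. BNIP3L, a mitophagy receptor, was at -0.48 ± 0.23 and PLEKHM1, an adaptor for fusion with lysosomes, at 0.52 ± 0.21 in the same table.

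By list, medians in the authors' deposited table were -0.22 for 34 other lysosomal hydrolases, 0.04 for 17 other membrane proteins, -0.21 for 15 other pump subunits, -0.11 for 19 TFEB relatives and mTORC1 genes, 0.02 for 27 other autophagy core genes, -0.08 for 22 cargo receptor and fusion genes and 0.21 for 6 genes of enzyme sorting. Among hydrolases and their helpers, SUMF1, which activates sulfatases, was at -0.55 ± 0.22 and the sulfatase SGSH at 0.60 ± 0.29 in that table. The tetraspanin CD63, a marker of late endosomes and lysosomes, was at -0.80 ± 0.35, LAPTM4B at -0.51 ± 0.27 and the channel TPCN2 at 0.32 ± 0.24. These genes too lay on both sides of 0 in every list.

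The mTORC1 genes named by the rule differ widely in length. MTOR, the kinase that holds TFEB in the cytoplasm, was at 0.88 ± 0.37 and its partner RPTOR at 0.63 ± 0.26 in the authors' deposited table, with lengths of 8677 and 6408 nucleotides. LAMTOR4, a small subunit of the complex that anchors mTORC1 to lysosomes, was at -0.82 ± 0.35 with a length of 605. Without the trend in length and GC content they stood at 0.51, 0.34 and -0.37. The pump subunit ATP6V0A2 was at 0.61 ± 0.23 in the authors' deposited table, and the small subunits ATP6V0E1 and ATP6V0B at -0.57 ± 0.34 and -0.55 ± 0.35.

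ATG16L1, which directs ATG8 conjugation to the membrane, was at 0.53 ± 0.22, ATG12 at -0.52 ± 0.29 and ATG10 at -0.57 ± 0.33 in the authors' deposited table. Of the genes that sort enzymes to lysosomes, GNPTAB, which makes the mannose 6-phosphate tag, was at 0.54 ± 0.34, its receptor IGF2R at 0.49 ± 0.41 and SORT1 at 0.39 ± 0.34. Adjusted p-values of these 6 genes ran from 0.38 to 0.59. None differed beyond the spread between libraries by that test.

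**Figure D5:**
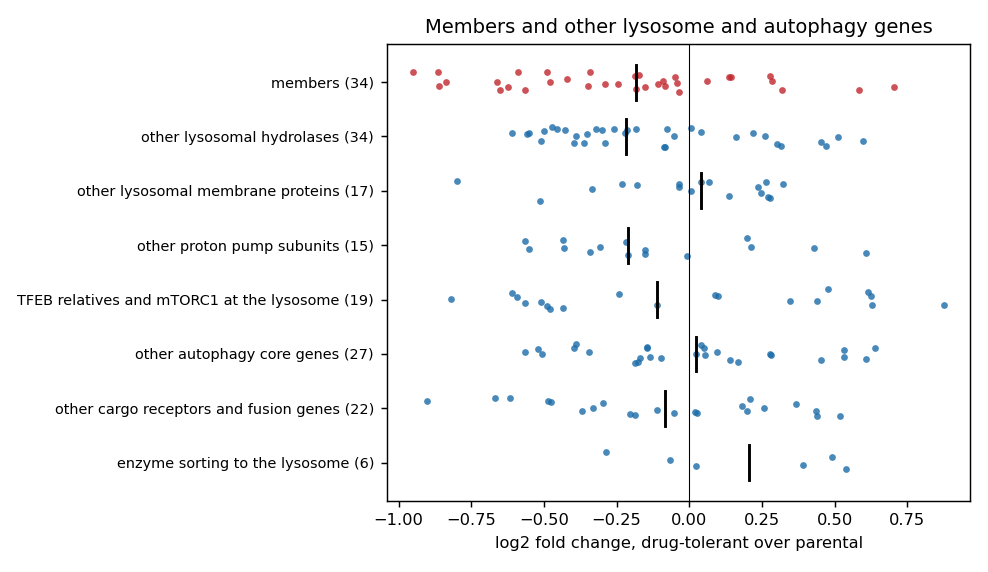
Log2 fold changes in the authors' deposited table of the 34 members (red) and of 140 other lysosome and autophagy genes in 7 lists (blue), one point a gene, with the number of genes in brackets and the median of each row as a black bar. Every row lies on both sides of 0, and the medians run from -0.22 to 0.21.

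The markers of epithelium fitted the line's label. EPCAM, CDH1 and 4 keratins had mean levels from 3778 to 35758 normalized reads in the authors' deposited table, none with an adjusted p under 0.05, while the lung factor NKX2-1 was at 2.83. Of 8 macrophage markers, 3 (PTPRC, MRC1 and TYROBP) had no row in that table and the highest other, ITGAM, was at 25.9, so the defining markers of that lysosome-rich cell type were absent or low. Of 6 fibroblast markers, COL1A1 was at 162 with a log2 fold change of 0.04 ± 0.30, PDGFRB was at 0.35 and the other 4 had no row.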

How the data were processed

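Poly(A) RNA of 3 parental and 2 drug-tolerant PC9 libraries was sequenced. FastQC, STAR, DESeq2 and hg38 are named per the submitters' processing notes, while versions, counting tool and annotation were not given in the sources used here. As mean level, the authors deposited a signal, reads over size factors averaged over libraries. Log2 fold changes with their SEs, a Wald score, p-values and adjusted p-values were deposited by the authors as well. No column belonged to a sample outside the series (0 columns). The planned edgeR test, DESeq2 refit and replicate block were not run, because the table holds no counts per library.

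The members, gene lists and rules were chosen with earlier results of these data known. Any member could be named, and of each other list the genes called and up to 3 with the smallest adjusted p at a mean level of at least 10. A gene that this rule names is not reported here, and it was kept in all counts and medians.

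Reads were recovered as follows. A mean level is a sum of whole reads times 1 step per library, and each of the 12705 genes whose mean was under 10 had a single solution at a tolerance of 1.5e-09 (largest residual 6.9e-10). The later search used a wider tolerance for larger means, and in the 6 listed genes under 10 that it kept it gave the same reads. Library groups came from the sign of their pull on the fold change. The authors' DESeq2 fit, moderated with a prior variance of 0.336 on the log2 scale, was then written out and matched the deposited fold changes of 519 checked genes of mean 8 to 10 with a median gap of 7.7e-09, 88.8% of them within 3e-08. For members under a mean of 1000, sets of whole reads with the deposited mean were tried. Only sets in a narrow window were tried, with a parental mean near that solved for reads even within each group. Sets were kept if they gave the fold change within 3e-08. Each library also had to lie within 0.25 to 2.2 times its group's mean, with dispersion at most 1. Within this window exactly 1 set was left for 17 of 17 members. The same held for 75 of 82 other listed genes tried (mean under 600) and 233 of 245 background genes (every 30th of 7326). These limits were chosen after seeing the data: before the lower limit of 0.25 was added, CTSH had more than 1 set, and GABARAPL2, just above 1000, was left out because it was ambiguous. On simulated data at the members' means, 33 of 34 genes were resolved in 1 way and all 33 were correct. Group means of more abundant members were solved from mean, fold change and SE, taking reads as even within a group. In recovered members the solved means were within 0.3% of the counted means. The search tried only sets near the solved parental mean, so part of this closeness was fixed in advance.

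Transcript lengths, GC content and exon overlaps came from GENCODE 29. The trend was a cubic in log2 length with a quadratic in GC, fitted over 12461 protein-coding genes and tested on simulated data. Promoters came from RefSeq. Python 3.11.15 was used, with numpy 2.4.6, pandas 2.3.3, scipy 1.17.1, numba 0.67.0 and matplotlib 3.10.9.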

Additional observations from a re-analysis of the deposited data

How the results depend on the processing

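In none of the alternatives run (thresholds of 0.1 and 0.01, no filter on low counts, a mean level of at least 50, scores scaled by their robust SD of 1.5, and removal of the length and GC trend) was any of the 34 genes called. Among other lysosome and autophagy genes 1, OPTN, was called at a threshold of 0.1 and 0 in the other alternatives. Members with an unadjusted p under 0.05 went from 9 lower and 1 higher to 2 lower (NPC2 and GABARAPL1) and 0 higher after robust scaling, and to 4 lower and 0 higher after removal of the trend. Both settings were planned for adjusted calls of members, but these counts at an unadjusted p, the robust scaling for other genes and all alternatives on recovered reads were added after seeing the data. The members' median log2 fold change stayed between -0.19 and -0.16. Removal of the trend kept the sign of 30 members and reversed CTSD (0.097), MCOLN1 (0.095), BECN1 (0.103) and ULK1 (-0.164), all within 0.2 of 0. The median log2 ratio of the 17 recovered genes ran from -0.261 to -0.087 when each library was left out in turn. Against parental a alone it was -0.021, and 12 of the 17 genes moved by more than the spread of their parental libraries. No paired analysis was possible because the table holds no counts per library and the recovered libraries carry no replicate number. Members with a mean level of 1000 or more have no value per library, so the pull of parental a on NPC2, ATP6V1A, CTSB and CTSZ was not tested.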
